A study of Mus musculus with 4 samples.

Results

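The 10 genes described here are those of the unfolded protein response, the program by which a cell answers unfolded protein in its endoplasmic reticulum (ER). They were Hspa5, Hsp90b1, Pdia4, Sdf2l1, Manf, Creld2, Xbp1, Atf4, Ddit3 and Trib3, and were found through the transcript named for each array probe. They made up 10 of the 21658 genes named on the array, and 11 of its 55681 probes, since Atf4 had 2 probes. All 11 probes were well above background on all 4 arrays, so no gene was lost to a filter on dim probes.

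The arrays held heart RNA from male mice, of the C57BL/6J strain named in the study's methods, after transverse aortic constriction (TAC), a narrowing of the aortic arch that loads the left ventricle with pressure, or after a sham operation. Hearts were taken at 2 weeks, the time chosen for the hypertrophic response, or at 8 weeks, chosen for heart failure. The 4 groups were sham at 2 weeks, TAC at 2 weeks, sham at 8 weeks and TAC at 8 weeks. The labels give an age of 10 weeks for both 2-week groups and 16 weeks for both 8-week groups, which could not be reconciled with the age at surgery in the study's methods. Each group was 1 single-colour array carrying a pool of RNA from 4 to 6 mice. The spread between mice was therefore not measured, no test between groups was possible and no p-value was computed.

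In the resting ER, the chaperone BiP, product of Hspa5, holds 3 membrane sensors inactive. When unfolded protein draws BiP away, the sensor IRE1 splices the Xbp1 mRNA so that it encodes an active transcription factor, and the sensor ATF6 is cut to release another. Both switch on genes for chaperones and for the export and degradation of misfolded proteins. The third sensor, PERK, phosphorylates the initiation factor eIF2alpha, which slows most translation but favours that of the Atf4 mRNA. ATF4 is also made after amino acid shortage, heme shortage or mitochondrial stress through other eIF2alpha kinases, and it drives Ddit3, Trib3 and genes of amino acid metabolism. In the heart the response is known from pressure overload and ischemia. The arrays measured mRNA abundance only, so Xbp1 splicing, ATF6 cleavage, eIF2alpha phosphorylation and protein levels were not read.

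Genes of the response are known to be read through short promoter elements, one class bound by ATF6 and XBP1 and another by ATF4, and examples are printed here to show where the letters of each lie. Promoters were taken from RefSeq on GRCm38.p6 as 250 bases before to 50 bases after each gene's start, and 9 of the 10 genes had an entry, the exception being Manf. Both strands were searched. The ER stress response element, in which CCAAT and CCACG stand 9 bases apart, was found in 39 of 32851 promoters, or 0.119%. It was present in 3 of the 9 members, Hspa5, Hsp90b1 and Creld2, and absent from this window in the other 6. The 250 bases before the start of these 3 are given 5′ to 3′ on the gene's strand, with each element in capitals.
Hspa5, chr2:34771840-34772089, plus strand: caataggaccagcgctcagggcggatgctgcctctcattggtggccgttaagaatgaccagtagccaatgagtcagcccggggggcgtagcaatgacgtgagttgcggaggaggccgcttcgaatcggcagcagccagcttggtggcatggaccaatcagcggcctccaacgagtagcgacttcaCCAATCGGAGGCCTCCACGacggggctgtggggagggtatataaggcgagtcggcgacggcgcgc
Hsp90b1, chr10:86705445-86705694, minus strand: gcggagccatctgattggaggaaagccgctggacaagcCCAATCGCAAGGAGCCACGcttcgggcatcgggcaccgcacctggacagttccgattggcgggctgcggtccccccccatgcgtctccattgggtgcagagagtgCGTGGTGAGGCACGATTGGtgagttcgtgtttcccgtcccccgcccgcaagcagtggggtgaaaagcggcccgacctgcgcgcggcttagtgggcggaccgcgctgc
Creld2, chr15:88819396-88819645, plus strand: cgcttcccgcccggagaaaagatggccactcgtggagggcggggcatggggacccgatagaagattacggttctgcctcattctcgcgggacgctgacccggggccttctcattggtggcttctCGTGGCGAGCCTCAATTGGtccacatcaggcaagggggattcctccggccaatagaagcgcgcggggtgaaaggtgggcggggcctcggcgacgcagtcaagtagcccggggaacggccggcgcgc
In Hspa5 the element lay at bases -65 to -47 from the start. Hsp90b1 held it on both strands, at -212 to -194 and, reversed, at -107 to -89. In Creld2 it was reversed, at -126 to -108.

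The second element, TGATGCAA, is a composite site for C/EBP and ATF factors that is read by ATF4 and CHOP. It occurred in 294 of the 32851 promoters, or 0.895%, and in none of the 9 members within this window, which says nothing about sites farther out. Among 19 other known targets of ATF4 and CHOP with an entry, 6 held it, namely Atf3, Nupr1, Chac1, Vldlr, Slc7a11 and Fgf21, and outside that list so did Herpud1 and Cnpy2. Their values differed in size and sign. Vldlr was at -0.17 at 2 weeks and -0.01 at 8 weeks as log2 TAC minus sham, Chac1 at -0.52 and 0.51, and Cnpy2 at -0.14 and 0.05, while Slc7a11 and Fgf21 were well above background on no array. Atf3 and Nupr1 were picked for printing because their differences, given further on, were large, and Herpud1 because it differed the other way. Each line gives bases -150 to -51 with the element in capitals, which in all 3 lay on the strand opposite to the gene.
Atf3, chr1:191183384-191183483, minus strand: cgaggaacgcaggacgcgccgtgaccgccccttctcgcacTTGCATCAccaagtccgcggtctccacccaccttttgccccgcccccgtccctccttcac
Nupr1, chr7:126625521-126625620, minus strand: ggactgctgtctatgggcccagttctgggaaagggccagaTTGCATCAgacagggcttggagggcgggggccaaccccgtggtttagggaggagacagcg
Herpud1, chr8:94386279-94386378, plus strand: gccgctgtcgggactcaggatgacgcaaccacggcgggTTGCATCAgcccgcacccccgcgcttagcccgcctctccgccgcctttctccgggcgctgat
The element began at base -110 in both Atf3 and Nupr1 and at -112 in Herpud1, which also held a related stress element, in which ATTGG and CCACG stand 1 base apart, at -52 to -42. That motif was in 0.0365% of all promoters. These matches describe letters in the reference sequence, and binding was not measured.

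Levels are given as log2 of the background-corrected signal relative to the 75th percentile of the same array, so that a level of 0 is the 75th percentile. Levels of different probes were not compared, because probes bind with different strength. Differences are log2 TAC minus sham at the same time. The only error that could be estimated was that of the spot measurement. It is given as an SD taken from probes printed in 10 spots with levels within 1 log2 unit of the gene. Spots of the arrays compared were treated as independent. The SD leaves out the differences between mice and between pools, and the labelling and hybridization of each array. The difference between the 2 sham arrays, sham at 8 weeks minus sham at 2 weeks, is given beside each member as the size of a difference between pools that had no TAC. These pools also differed in age and in time after the operation. Age, time and the spread between pools cannot be told apart in it.

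None of the 10 genes differed by over 2-fold between TAC and sham, at 2 weeks or at 8 weeks, in either direction. At 2 weeks 0.797% of 19079 measured gene probes were over 2-fold higher and 0.598% were over 2-fold lower, and at 8 weeks these shares were 1.6% and 0.941% of 19334, so a count of 0 among 10 genes was close to the background. Over all 55681 probes, dim ones included, 1.89% and 1% were over 2-fold higher and lower at 2 weeks, and 1.89% and 1.77% at 8 weeks. At a limit of 1.5-fold, only Atf4 at 8 weeks was higher, against 5.11% of gene probes, and no gene was lower, against 4.19%. At 2 weeks none passed 1.5-fold, against 3.96% higher and 2.86% lower. The median difference of the 10 genes was -0.12 at 2 weeks and -0.07 at 8 weeks, beside -0.01 and -0.01 over all measured gene probes, and the 8-week median turned to 0.10 without scaling between arrays, 0.02 with scaling on the median and 0.01 with normexp background correction.

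**Figure D1:**
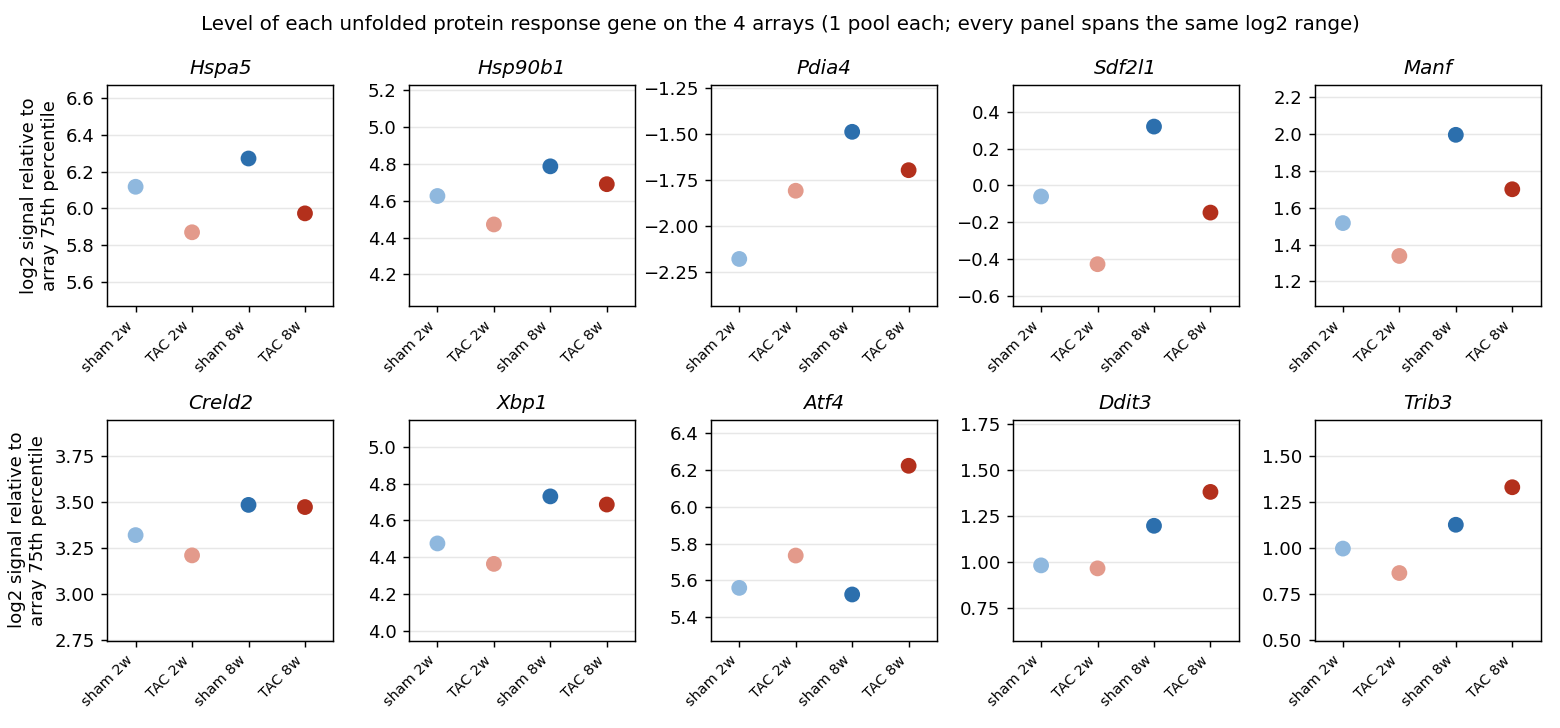
Level of each of the 10 genes on the 4 arrays, as log2 signal relative to the array's 75th percentile (y axis, a different range but the same span in every panel), with 1 point per array. Hspa5 and Sdf2l1 are lower on both TAC arrays than on both sham arrays, Atf4 is higher on both TAC arrays, and in the other 7 panels TAC and sham points overlap.

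Hspa5 encodes BiP, the main Hsp70-type chaperone of the ER lumen. Its level was 6.12 on the sham and 5.87 on the TAC array at 2 weeks, and 6.27 on the sham and 5.97 on the TAC array at 8 weeks. Both TAC arrays lay below both sham arrays. The difference was -0.25 (measurement SD 0.077) at 2 weeks and -0.30 (SD 0.076) at 8 weeks, a signal 1.19-fold and 1.23-fold lower after TAC. The sham arrays differed by 0.15, less than either TAC difference, and Hspa5 stayed below 0 under all 8 alternative settings, from -0.29 to -0.20 at 2 weeks and from -0.32 to -0.13 at 8 weeks.

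Sdf2l1, a partner of BiP and of its DnaJ cochaperones, had the widest range of the 10 genes by their brightest probes, 0.75 over the 4 arrays. The levels were -0.06 in sham and -0.43 in TAC at 2 weeks, and 0.32 in sham and -0.15 in TAC at 8 weeks. As for Hspa5, both TAC arrays were lower than both sham arrays. TAC minus sham was -0.37 (SD 0.134) and -0.47 (SD 0.119), or 1.29-fold and 1.38-fold lower, and the sham arrays differed by 0.38, about the size of the 2-week difference. Of 18816 gene probes measured on all 4 arrays, 25.2% had both TAC arrays below both sham arrays, so 2 of 10 genes with this order was not more than the array as a whole. Since the samples were heart tissue and not sorted cells, fewer cells of a type and less RNA per cell cannot be told apart.

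Hsp90b1 encodes GRP94, the ER member of the Hsp90 family. It was measured at 4.63 in sham and 4.47 in TAC at 2 weeks, and at 4.79 and 4.69 at 8 weeks. TAC at 8 weeks lay above sham at 2 weeks, so the groups overlapped. The differences were -0.15 (SD 0.081) and -0.10 (SD 0.081), the latter turning to 0.07 without scaling between arrays and to 0.02 with normexp, and the sham arrays differed by 0.16.

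Manf, a secreted and ER-resident protein that protects cells under ER stress, was at 1.52 in sham and 1.34 in TAC at 2 weeks, and at 2.00 and 1.70 at 8 weeks. TAC was lower at each time, but the 8-week TAC array exceeded the 2-week sham array. The differences were -0.18 (SD 0.0986) and -0.30 (SD 0.0924). The sham arrays differed by more than either, 0.48.

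Pdia4, a protein disulfide isomerase, was read well below the 75th percentile of each array, where spot error is larger. Levels of -2.18 in sham and -1.81 in TAC were read at 2 weeks, and -1.49 and -1.70 at 8 weeks. The 2-week sham array was the low one and the other 3 lay together. TAC minus sham was 0.37 (SD 0.233) and then -0.21 (SD 0.181), both within 2 measurement SDs of 0, while the sham arrays differed by 0.69.

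Creld2, a secreted ER protein with disulfide isomerase activity, was the only member with a probe printed in 10 spots, so its measurement error could be read directly. The mean level over spots was 3.32 ± 0.0739 (SD, 10 spots) in sham and 3.21 ± 0.0728 in TAC at 2 weeks, and 3.48 ± 0.0526 in sham and 3.47 ± 0.0582 in TAC at 8 weeks. The time groups were apart, and TAC lay close to sham at 8 weeks but below it at 2 weeks. The difference was -0.11 (SE 0.0328 over spots) at 2 weeks and -0.01 (SE 0.0248) at 8 weeks, where median scaling, no scaling and normexp each gave a value above 0, and the sham arrays differed by 0.16 (SE 0.0287). These spots repeat the measurement of 1 pool and are not replicates of a group. The SEs treat the spots of the arrays as independent, although the same 2 spots were the highest on every array.

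**Figure D2:**
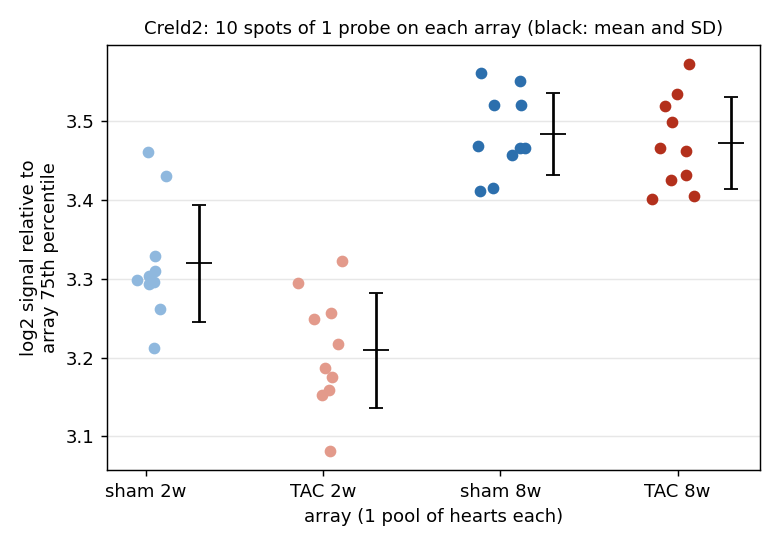
Creld2 level in each of the 10 spots of its probe on each array (points, log2 signal relative to the array's 75th percentile), with the mean and SD over spots in black. The spots run from 3.08 to 3.32 on the 2-week TAC array and from 3.21 to 3.46 on its sham array, while both 8-week arrays lie between 3.40 and 3.57.

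Taking these 6 ER lumen proteins as a group, 5 of 6 were below 0 at 2 weeks, with Pdia4 the exception, and 6 of 6 were below 0 at 8 weeks, where Hsp90b1 turned above 0 without scaling and with normexp, and Creld2 under these settings and with median scaling. Their median difference was -0.17 at 2 weeks and -0.25 at 8 weeks. Over all measured gene probes 51.9% were below 0 at 2 weeks and 52.1% at 8 weeks. In the sham comparison all 6 were higher at 8 weeks than at 2 weeks under every setting tried, with a median of 0.27 beside 0.02 over all gene probes. Both TAC differences and the sham difference share the sham arrays, so a high 8-week sham array or a low 2-week sham array enters more than 1 of these values.

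Atf4 encodes the transcription factor that carries the PERK branch and was the member with the largest difference between TAC and sham. Its brighter probe was at 5.56 in sham and 5.73 in TAC at 2 weeks, and at 5.52 in sham and 6.22 in TAC at 8 weeks. The 8-week TAC array stood above the other 3, and both TAC arrays were above both sham arrays, an order that 23.2% of gene probes had. TAC minus sham was 0.18 (SD 0.0777) at 2 weeks and 0.70 (SD 0.0731) at 8 weeks, a 1.62-fold higher signal, while the sham arrays differed by -0.04. At 8 weeks 96.4% of the gene probes measured on both arrays had a lower difference. The value ranged from 0.65 to 0.87 over the 8 alternative settings.

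The second Atf4 probe was at 0.28 in sham and 0.47 in TAC at 2 weeks, and at 0.55 and 1.14 at 8 weeks. It gave 0.18 at 2 weeks and 0.59, or 1.51-fold, at 8 weeks. Unlike the brighter probe it had the 2-week TAC array below the 8-week sham array, with a sham difference of 0.26.

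Ddit3 encodes CHOP, a transcription factor induced by ATF4 that is tied to cell death under prolonged ER stress. It was at 0.98 in sham and 0.97 in TAC at 2 weeks, and at 1.20 in sham and 1.38 in TAC at 8 weeks. The 2 groups lay together at 2 weeks and TAC was the higher at 8 weeks. The differences were -0.02 (SD 0.105), which turned above 0 under 3 of 8 settings, and 0.18 (SD 0.0978), with 0.22 between the sham arrays.

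Trib3, a pseudokinase induced by ATF4 and CHOP, was at 1.0 in sham and 0.86 in TAC at 2 weeks, and at 1.12 and 1.33 at 8 weeks. TAC was the lowest array at 2 weeks and the highest at 8 weeks. TAC minus sham was -0.13 (SD 0.106) and then 0.20 (SD 0.0985), and the sham arrays differed by 0.13.

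Xbp1, the substrate of IRE1, was at 4.48 in sham and 4.36 in TAC at 2 weeks, and at 4.73 and 4.69 at 8 weeks. As for Creld2, the arrays parted by time more than by operation. The differences were -0.11 (SD 0.0809) and -0.04 (SD 0.0807), the latter turning to 0.04 with median scaling and to 0.12 without scaling, and the sham arrays differed by 0.26. Which part of the transcript the probe binds was not analysed here, so spliced and unspliced Xbp1 were not separated.

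**Figure D3:**
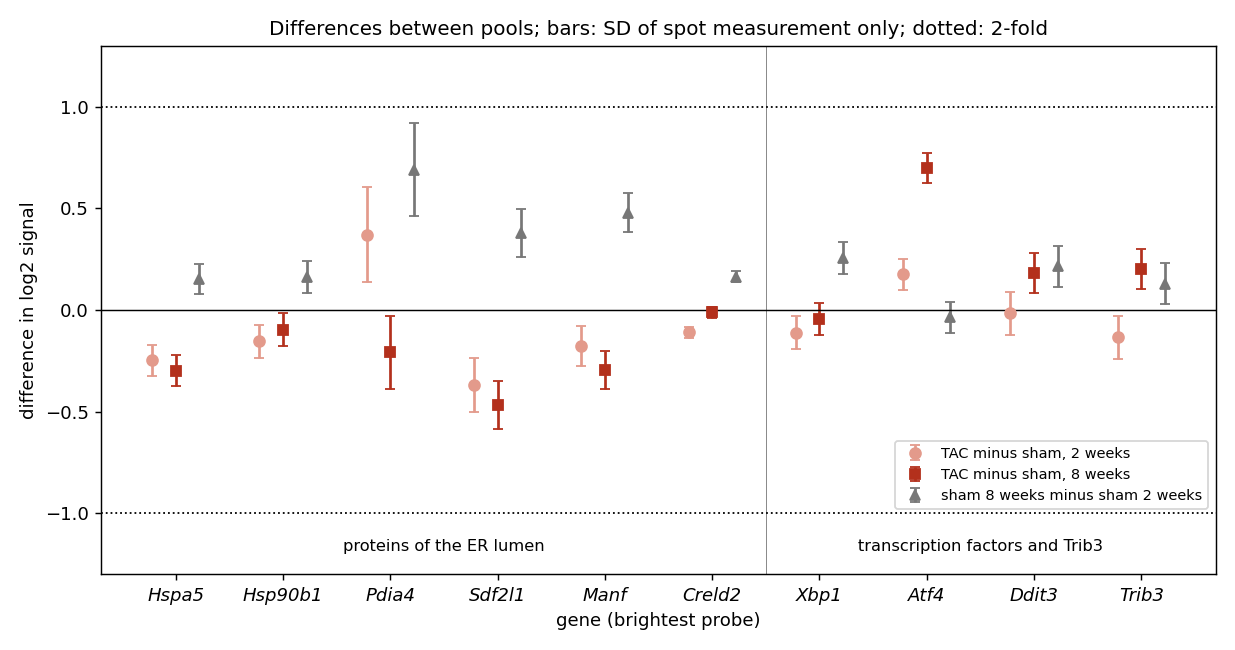
Difference in log2 signal (y axis) for each of the 10 genes (x axis), as TAC minus sham at 2 weeks (circles), TAC minus sham at 8 weeks (squares) and sham at 8 weeks minus sham at 2 weeks (triangles). Bars are the SD of the spot measurement, which leaves out differences between mice, and dotted lines mark 2-fold. Atf4 at 8 weeks stands at 0.70, the ER lumen genes lie at or below 0 at 8 weeks, where Hsp90b1 and Creld2 turn above 0 under other scalings, and the sham difference is above 0 for all genes but Atf4, which turned above 0 without scaling or with both its probes averaged.

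Set against the measurement error, 4 of 10 genes differed by over 2 measurement SDs at 2 weeks, 5 at 8 weeks, and 8 between the 2 sham arrays. The share of all gene probes past this limit was not computed, so these counts are not a trait of the 10 genes. Over all measured gene probes the SD of the differences was 0.335 at 2 weeks, 0.389 at 8 weeks and 0.257 between the sham arrays. Set against the sham difference, the TAC difference was the larger in size for 3 genes at 2 weeks, Hspa5, Atf4 and Trib3, and for 4 at 8 weeks, the same 3 and Sdf2l1. The share of all gene probes with a larger TAC difference was not computed either. Under other settings the TAC difference became the larger for Hsp90b1 and Sdf2l1 at 2 weeks and Ddit3 at 8 weeks, each under 2 of 8. For Creld2 at 2 weeks it did so under 1 of 8. For Trib3 at 2 weeks the values were close in size, -0.133 and 0.129, and the order was lost under 4 of 8 other settings, while Hspa5 at both times and Sdf2l1 at 8 weeks were no longer larger without scaling between arrays. For Atf4 at 2 weeks this held for the brighter probe only, since the second probe had 0.18 beside a sham difference of 0.26. The sham difference was above 0 for 9 of 10 genes, while 44.1% of 18991 gene probes were below 0. None of the 10 passed 2-fold between the sham arrays, against 0.348% of gene probes higher and 0.258% lower, and at 1.5-fold Pdia4 was higher, against 1.77%, and none was lower, against 1.37%.

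The rest of the pathway was described through 6 lists with 88 genes, of which 82 were measured on all 4 arrays. At 2 weeks 84 were measured on both arrays and 2 genes were over 2-fold higher and none lower, against 0.797% and 0.598% of all measured gene probes. At 8 weeks 83 were measured, and 4 were higher and 1 lower, against 1.6% and 0.941%. With normexp background correction 1 was higher at 2 weeks, and 3 were higher and none lower at 8 weeks. Between the sham arrays 1 was higher, Atf3, and 1 lower, Derl3. Of the 7 calls of TAC against sham, 6 were in the list of other ATF4 and CHOP targets and 1 was Derl3.

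Among 11 genes of the sensors, the related factors freed by the same proteolysis and its proteases Mbtps1 and Mbtps2, none passed 2-fold at either time. Of the 3 sensors themselves, Ern1, which encodes IRE1, differed by 0.04 (SD 0.139) at 2 weeks and 0.01 (SD 0.129) at 8 weeks, and by 0.08 between the sham arrays. Eif2ak3, which encodes PERK, differed by 0.15 (SD 0.144) and 0.21 (SD 0.140), with -0.10 between the sham arrays. Atf6 was at 0.47 in sham and 0.67 in TAC at 2 weeks, and at 0.55 and 0.81 at 8 weeks, differences of 0.21 and 0.25 beside 0.09 between the sham arrays.

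The list also holds membrane-bound relatives of ATF6. Creb3l2, a membrane-bound factor of secretory cells, differed by 0.08 at 2 weeks and by 0.67 at 8 weeks, or 1.59-fold, with 0.07 between the sham arrays. Creb3, another of this family, differed by 0.18 and 0.50. The list's median was 0.08 at 2 weeks and 0.21 at 8 weeks, where it was 0.38 without scaling.

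The 6 genes of the other eIF2alpha kinases, eIF2alpha itself and its phosphatase subunits also had none past 2-fold, with medians of 0.09 and 0.22. All 6 were above 0 at 8 weeks, 5 of 6 in the deposited table, while 52.1% of gene probes were below 0. Ppp1r15a encodes GADD34, the subunit through which the phosphatase restores translation, and it is itself induced by ATF4. Its level was 2.99 in sham and 3.11 in TAC at 2 weeks, and 2.92 in sham and 3.53 in TAC at 8 weeks. Like Atf4, it was highest on the 8-week TAC array, with differences of 0.11 and 0.62, the latter 1.53-fold, and -0.07 between the sham arrays. Ppp1r15b, the constitutive subunit, differed by 0.27 and 0.37, and Eif2ak2, the kinase PKR, by 0.07 and 0.28.

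Among 20 other ER chaperones and foldases, none passed 2-fold. The median was -0.14 at 2 weeks, with 15 of 19 measured genes below 0, beside 51.9% of all measured gene probes. At 8 weeks the median was -0.04, with 11 of 20 below 0, beside 52.1% of gene probes. That 8-week median turned above 0 with quantile normalization, median scaling or no scaling. Pdia5, a protein disulfide isomerase, was at 1.03 in sham and 0.22 in TAC at 2 weeks, and at 0.89 and 0.70 at 8 weeks. The 2-week TAC array was the low one, 1.76-fold below its sham, a difference of -0.82, with -0.19 at 8 weeks and -0.14 between the sham arrays. Hyou1, an exchange factor for BiP, differed by -0.28 (SD 0.334) and -0.51 (SD 0.313), and Dnajb9, a BiP cochaperone, by -0.41 and -0.22. The stress response element was found in 5 of 18 promoters of this list. Calr and Canx, which encode the lectin chaperones calreticulin and calnexin, differed by -0.25 and -0.27 at 2 weeks and by -0.12 and -0.15 at 8 weeks. Pdia6 differed by -0.16 and 0.15, Dnajc3 by -0.16 and 0.04, and Ero1b by -0.11 and -0.01. Dnajb11, with the related element, differed by -0.06 and 0.04.

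In ER-associated degradation, which returns misfolded proteins to the cytosol for the proteasome, 1 of 16 genes passed 2-fold, and the medians were -0.01, above 0 under 4 of the other settings, and 0.10. Derl3, a channel component found mainly in secretory cells, was at -3.16 in sham and -0.45 in TAC at 2 weeks, 6.55-fold higher. At 8 weeks its probe was not well above background on either array, so that no difference could be read there, and the 8-week sham array was at least 2.11-fold lower than the 2-week sham array. Pools without TAC thus also differed past 2-fold in this gene. Its promoter held the stress response element at -156 to -138. Syvn1, a ubiquitin ligase and the other gene of this list with that element, at -44 to -26, differed by -0.10 at 2 weeks and 0.00 at 8 weeks. Derl3 is abundant in plasma cells, and of 6 plasma and B cell markers 4 were measured on all 4 arrays and Jchain on none. The summed signal of that list was 0.663, 0.849, 0.734 and 0.774 times the 75th percentile in sham and TAC at 2 weeks and sham and TAC at 8 weeks, and its part in the Derl3 value was not tested.

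Herpud1, an organiser of the degradation complex, was at 5.95 in sham and 5.42 in TAC at 2 weeks, and at 5.26 and 5.04 at 8 weeks. The 2-week sham array was highest, and the groups did not part by operation. The differences were -0.53, or 1.45-fold lower, and -0.23, beside -0.69 between the sham arrays. Selenos differed by -0.33 and -0.16, and Edem1, a lectin that marks misfolded glycoproteins, by 0.24 and 0.31. None of the 14 genes of translocation and export passed 2-fold. The medians of that list were 0.04, just below 0 with median scaling, and 0.08, with Spcs3, a signal peptidase subunit, at 0.28 and 0.61 beside 0.14 between the sham arrays, Sec61a1 at 0.18 and 0.25 and Sec61b at -0.27 and -0.15.

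The 21 other ATF4 and CHOP targets, 19 of them measured, had the medians farthest from 0 of the 6 lists, 0.30 at 2 weeks and 0.42 at 8 weeks. Gdf15, a stress-induced cytokine, was at -0.77 in sham and 0.48 in TAC at 2 weeks, and at -0.56 in sham and 3.44 in TAC at 8 weeks. Both TAC arrays were above both sham arrays and the 8-week TAC array was far above the rest. The differences were 1.25 (SD 0.131), or 2.38-fold, and 4.0 (SD 0.0969), or 16.0-fold, while the sham arrays differed by 0.21.

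Atf3, an immediate stress factor and a target of ATF4, was at 0.22 in sham and 0.90 in TAC at 2 weeks, and at 1.47 in sham and 3.34 in TAC at 8 weeks. The sham arrays were apart by 1.25, or 2.37-fold, so that the 8-week sham array was above the 2-week TAC array. Within each time TAC was higher, by 0.68 and by 1.88, the latter 3.67-fold.

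Nupr1, a small stress-induced chromatin protein, was at 1.64 in sham and 2.27 in TAC at 2 weeks, and at 1.65 and 3.0 at 8 weeks. The sham arrays lay together, 0.01 apart, and both TAC arrays were above them, by 0.64 and by 1.36, or 2.56-fold. Mthfd2, a mitochondrial enzyme of folate metabolism, was at -3.20 and -2.31 at 2 weeks and at -3.03 and -1.88 at 8 weeks, differences of 0.89 (SD 0.306) and 1.15 (SD 0.249), the latter 2.22-fold, and 0.17 between the sham arrays.

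Cth, the cystathionine gamma-lyase that makes cysteine, was the only target over 2-fold lower. Its level was -2.01 in sham and -2.44 in TAC at 2 weeks, and -2.64 in sham and -3.71 in TAC at 8 weeks. The value of -1.06 (SD 0.316) at 8 weeks, 2.09-fold lower, was under 2-fold with quantile normalization, median scaling, no scaling or normexp, and the sham arrays differed by -0.63. The list was therefore not of 1 direction, with 12 of 19 genes above 0 at 2 weeks and 13 of 19 at 8 weeks. Over all measured gene probes 51.9% and 52.1% were below 0 at these times.

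**Figure D4:**
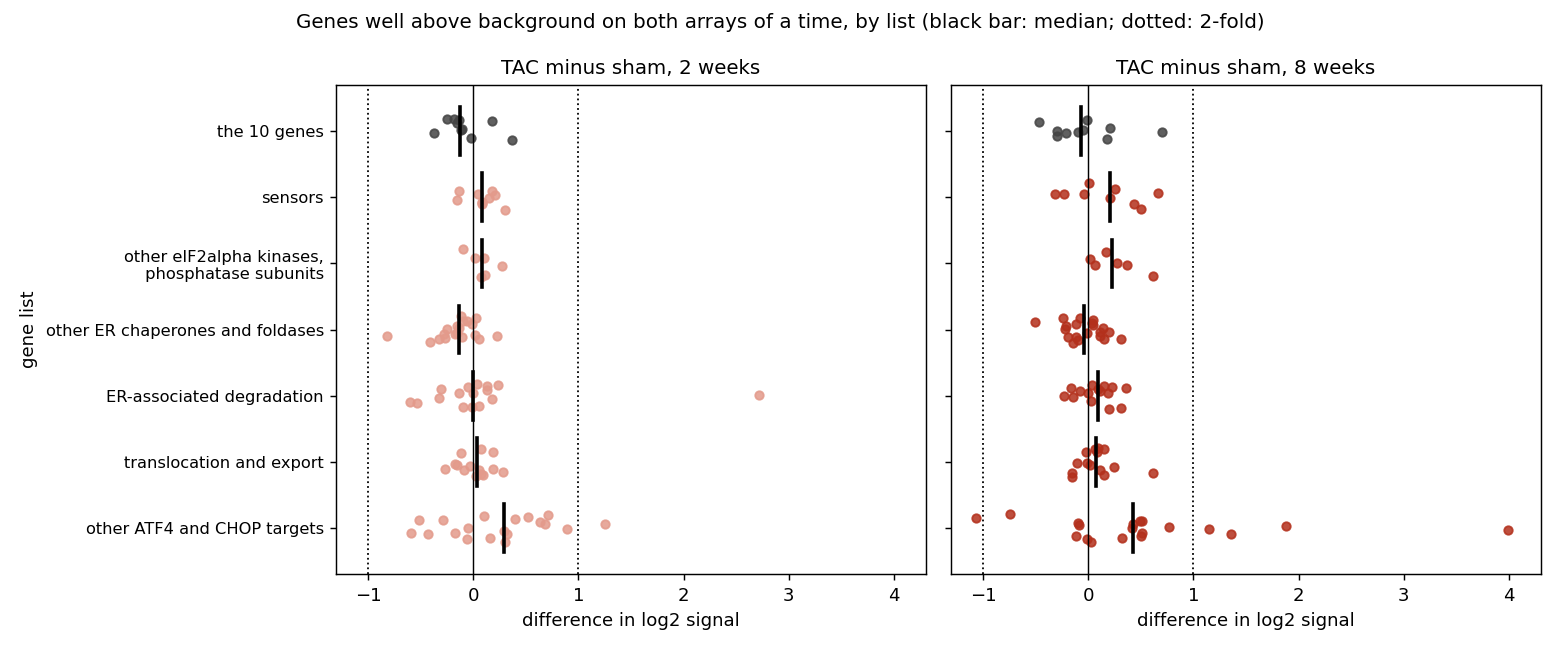
Difference in log2 signal, TAC minus sham, at 2 weeks (left) and 8 weeks (right) for the 10 genes and for the 6 lists of other pathway genes (rows), 1 point per gene well above background on both arrays of that time, with the median as a black bar and 2-fold as dotted lines. The points past 2-fold at 2 weeks are Derl3 at 2.71 and Gdf15 at 1.25, and those at 8 weeks are Gdf15 at 4.0, Atf3, Nupr1, Mthfd2 and, on the lower side, Cth.

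The TAC hearts also differed from sham in genes that mark hypertrophy and other cell types. The 4 hypertrophy genes Nppa, Nppb, Myh7 and Acta1 were higher by 1.03 to 3.09 at 2 weeks and by 1.94 to 3.69 at 8 weeks. The 8 cardiomyocyte markers were all measured, and their summed signal, relative to the 75th percentile, was 7310 in sham and 6859 in TAC at 2 weeks, and 6976 and 6185 at 8 weeks. The bright genes Myh6, Actc1, Myl2, Tnnt2 and Tnni3 made up most of that signal. The markers were not of 1 direction, with 3 of 8 above 0 at 2 weeks and 1 of 8 at 8 weeks. Their differences ran from -0.42 to 0.06 and from -0.63 to 0.08, with medians of -0.17 and -0.17. All 9 fibroblast and matrix markers were above 0 at both times, where the 2-week sums were 556 in sham and 880 in TAC, and the 8-week sums 558 and 806. All 5 macrophage markers were above 0 at both times as well, with 1 below 0 at 8 weeks under normexp, their sums being 32.0 and 39.7, then 32.9 and 41.2. The 4 endothelial markers summed to 52.8 and 53.1, and to 45.7 and 43.7. Kdr made up most of these sums and differed by -0.04 and -0.08. At 2 weeks 3 of the 4 were above 0, with a median of 0.21, and at 8 weeks 1 of 4, with -0.07. Over all measured gene probes 51.9% were below 0 at 2 weeks and 52.1% at 8 weeks. The 4 adipocyte markers were well above background on no array. Of 3 atrial markers, Myl4 was measured on all arrays, at 1.63 and 1.61 at 2 weeks and 1.94 and 1.43 at 8 weeks. Myl7 was at least 3.64-fold and Sln at least 2.55-fold lower in TAC than in sham at 8 weeks, with both probes too close to background in TAC for a measured level, and Myl7 was at least 2.84-fold higher in the 8-week than in the 2-week sham array. The 8-week sham array was thus the highest of the 4 for all 3 atrial genes. The part of these shifts in the values of the 10 genes was not tested.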

How the data were processed

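Total RNA of mouse hearts was labelled with Cy3 and hybridized to SurePrint G3 Mouse GE 8x60K arrays, 1 per group, and slide and scan were shared by all 4. The deposited scanner files hold a background-corrected intensity per spot, not normalized between arrays, made by the authors with Agilent Feature Extraction (10.7.3.1 per the file headers, 9.1 in the submitters' processing notes). The paper names GeneSpring and no normalization. The deposited table of the series holds intensity values of the same arrays.

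Here log2 of the processed signal was taken relative to the 75th percentile of each array, control probes left out. Spots flagged as outliers, 141 to 167 per array, were dropped, spots of a probe were averaged, and the brightest probe stood for a gene. Between 54.7% and 58.5% of probes were well above background and no spot was saturated. A call required over 2-fold and a signal well above background on the brighter array. With 1 array per group no test was made, and the number of arrays limits the precision. Where the dimmer array was not well above background the fold was taken as a lower bound.

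The members and the lists were chosen with earlier results of these data known. Of the other pathway genes, the text names the 3 of each list with the largest mean difference in size and every gene past 2-fold. Ern1 and Eif2ak3, and genes named for a promoter element, were added after their values were seen. Alternatives were quantile normalization, the median, a 75th percentile over detected probes, no scaling, the deposited table, normexp (limma 3.58.1 under R 4.3.3, offset 50), outlier spots kept, the mean of a gene's probes, no filter, and 1.5-fold or 3-fold. Counting was tested on simulated data. Python 3.11.15, pandas 2.3.3 and numpy 2.4.6 were used.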

Additional observations from a re-analysis of the deposited data

Results flagged for a closer look

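Among the 10 genes, 3 had differences of opposite sign at the 2 times. The share of all gene probes with opposite signs was not computed, so this count is not a trait of the 10 genes. For Pdia4, TAC minus sham was 0.37 at 2 weeks and -0.21 at 8 weeks, so that the 8-week value was lower by a difference of -0.58. For Ddit3 the values were -0.02 and 0.18, apart by 0.20, and the 2-week value was above 0 under 3 of 8 other settings. For Trib3 they were -0.13 and 0.20, apart by 0.34. With 1 array per group these differences between the times were not tested.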

How the results depend on the processing

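No gene of the 10 passed 2-fold under any setting tried, and between TAC and sham only Atf4 at 8 weeks passed 1.5-fold, a count of 1. Of 240 alternative values for single members, 212 moved by less than the measurement SD and 28 by more, and 5 of 30 values changed sign under some setting (Hsp90b1, Creld2 and Xbp1 at 8 weeks, Ddit3 at 2 weeks and Atf4 between the sham arrays). Without scaling, the median of all gene probes at 8 weeks shifted by 0.17, to 0.16. With this shift the 8-week medians became 0.10 for the 10 genes, 0.38 for the sensors, 0.39 for the eIF2alpha list, 0.12 for other chaperones, 0.26 for degradation, 0.24 for translocation and export and 0.59 for ATF4 and CHOP targets, values that, relative to this shift common to all probes, are those reported, and the sham median of the 10 genes became 0.29. The settings for the sham difference were chosen after seeing the data. Without the filter on dim probes the 2-week median of ATF4 and CHOP targets was 0.16. Pathway genes over the limit and higher at 2 weeks numbered 1 with normexp, 7 at 1.5-fold and 1 at 3-fold, and lower ones 3 at 1.5-fold. At 8 weeks, 3 were higher with normexp, 9 at 1.5-fold and 2 at 3-fold. Lower ones at 8 weeks numbered 0 with quantile normalization, median scaling, no scaling, normexp or 3-fold, and 2 at 1.5-fold. The cause of the change with normexp was not tested.

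No paired analysis was possible because each group had 1 array, and for the same reason no replicate was left out. All values are differences between single pools, and spread between mice, operation day and pool cannot be told apart from TAC. Error bars cover spot measurement only. At levels under -2 the measurement SD was about 0.318 at 2 weeks and 0.303 at 8 weeks, beside 0.097 and 0.093 at levels of 0 or more. Dim genes were thus read with less precision. For Pdia4, from probes of similar level, it was 0.233 and 0.181.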

Other observations

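Other ATF4 targets, picked after their values were seen, went both ways. None passed 2-fold, because every gene of the list that did was already named. Asns, asparagine synthetase, differed by 0.40 at 2 weeks and 0.49 at 8 weeks, Psat1 and Phgdh of serine synthesis by 0.30 and 0.50 and by 0.32 and 0.42, and Aldh18a1 of proline synthesis by 0.71 and 0.77. Shmt2, which makes glycine, differed by -0.29 and -0.11, and Chac1, which degrades glutathione, by -0.52 at 2 weeks and 0.51 at 8 weeks. Ddit4, an inhibitor of mTORC1, differed by 0.52 and 0.51. Bcl2l11, which encodes the death-promoting protein BIM, was at -0.59 and -0.74.

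The gene probes whose profile over the 4 arrays was most like that of Sdf2l1, the member with the widest range by brightest probe, were sought among 18805 probes by the Euclidean distance between centred log2 levels. The nearest 5 were Cpt2, a mitochondrial carnitine palmitoyltransferase, at a distance of 0.0227, 1 probe of Myl2, the ventricular myosin light chain, at 0.0278, Hjv at 0.0380, Pex26 at 0.0441 and Zpbp at 0.0444. The brightest Myl2 probe did not share this profile, with 0.06 and -0.15 for TAC minus sham and -0.01 between the sham arrays.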
